A study of Mus musculus with 21 samples.

Results

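The genes described here are 49 genes of the secretory pathway and the unfolded protein response, which build, run and guard the endoplasmic reticulum (ER). They were chosen by symbol, with earlier results of these data known, and all 49 were found among the 52636 genes of the count table. By role, 11 are ER chaperones and co-chaperones, 4 are protein disulfide isomerases, 6 are sensors and transcription factors of the response, 8 belong to ER-associated degradation, 5 to the translocon and its TRAP complex, 5 to the COPII coat and ER exit, 5 fold procollagen, and 5 are cargo receptors and retrieval receptors. A filter on low counts kept 48 of them. The exception was Derl3, a degradation gene, at a mean of 0.0405 CPM in DMSO (CPM is a gene's count scaled to a fixed library size) and no more than 0.176 CPM in any group, and it was not tested.

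RNA was sequenced from mouse fibroblasts carrying the surface markers Ly6C and Sca-1, in 7 treatment groups of 3 libraries each. The groups were DMSO, the solvent alone; CHIR; TGFb1; TGFb1 + DMSO; TGFb1 + CHIR; TGFb1 + IL1b; and TGFb1 + TNF. TGFb1 is transforming growth factor beta 1, a growth factor known for raising matrix production in fibroblasts, and IL1b and TNF are inflammatory cytokines. CHIR is given in the labels by that name alone. Doses, times, strain, age and genotype were not given in the sources used here, nor whether the 3 libraries of a group came from separate cultures or animals, so p-values measure only the spread between these libraries.

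Secreted and membrane proteins enter the ER through the Sec61 translocon, fold with the help of chaperones such as BiP (the product of Hspa5) and of disulfide isomerases, and leave in vesicles coated with COPII. When unfolded protein builds up, the sensors IRE1 (Ern1), ATF6 (Atf6) and PERK (Eif2ak3) start the unfolded protein response, which raises chaperones and degradation factors and slows translation. Fibroblasts carry a heavy load of procollagen, which needs its own chaperones, among them HSP47 (Serpinh1), and the factor OASIS (Creb3l1) is known for its part in collagen-secreting cells. Gene counts do not show the splicing of Xbp1 mRNA, the cleavage of ATF6 or the phosphorylation of PERK, by which the 3 sensors signal.

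Library totals ran from 19796379 to 29276382 counts, and normalisation factors from 0.9629 to 1.048. No 2 libraries of a group agreed within sampling noise. CPM values below are scaled by these factors. The libraries held 25777 to 26179 CPM of 7 fibroblast markers in DMSO. The sort marker Ly6a (Sca-1) averaged 142 ± 5.52 CPM (SD) in DMSO and 7.83 ± 0.949 CPM in TGFb1 + CHIR, and Ly6c1 fell from 49.8 to 0.703 CPM between the same groups. Markers of plasma cells, another secretory cell type, summed to at most 0.153 CPM in any library, with Ighm and Igkc at 0, and epithelial markers to at most 0.538 CPM. Immune markers summed to 5.89 to 20.9 CPM, with Ptprc, Adgre1 and Cd3e at 0. Of the 7 immune markers, 3 passed the filter on low counts. By the test described below, 2 of them were lower in TGFb1 + DMSO than in DMSO, and 1 was higher in TGFb1 + IL1b than in TGFb1. Endothelial markers summed to 4.49 to 24.9 CPM, highest in TGFb1 + CHIR, and mesothelial markers to 8.61 to 29.2 CPM. Their part in the results was not tested. In bulk samples, fewer cells of a type and less RNA per cell cannot be told apart.

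Several members share sequence or position with other genes, and the sources used here do not say how the authors assigned such reads. Sec61b shares 17.4% of its 50-base windows with other genes and Ppib 8.48%, followed by Derl1 with 5.56%, Dnajb9 with 5.5% and Hsp90b1 with 2.96%. The counts of Sec61b and Ppib are therefore uncertain.

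The response elements of the unfolded protein response could be read in the promoters. RefSeq windows from 250 bases before to 50 after the start, on GRCm38.p6, were matched for 39 of the 49 members. The ER stress response element (ERSE, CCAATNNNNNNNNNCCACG on either strand), through which ATF6 and NF-Y are known to act, lay in the windows of 9 of these 39 members (23.1%) and of 37 of all 27025 genes with a window (0.137%). These sites are shown because the 8 tested members that carry one moved in the same direction in the interaction of CHIR and TGFb1, described further on. In the lines that follow, written 5′ to 3′ on the gene's own strand, capitals mark the element, and an element that begins with CGTGG is the same motif on the opposite strand.
Hspa5, chr2:34772010-34772058, + strand: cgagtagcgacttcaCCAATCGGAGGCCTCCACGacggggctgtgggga
Hsp90b1, chr10:86705623-86705671, - strand: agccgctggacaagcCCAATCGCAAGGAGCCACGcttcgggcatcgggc
Hsp90b1, chr10:86705518-86705566, - strand: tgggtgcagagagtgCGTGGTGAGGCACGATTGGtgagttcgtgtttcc
Calr, chr8:84847060-84847108, - strand: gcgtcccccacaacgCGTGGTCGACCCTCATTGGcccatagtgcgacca
Canx, chr11:50325785-50325833, - strand: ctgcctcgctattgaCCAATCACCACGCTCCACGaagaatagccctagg
Creld2, chr15:88819505-88819553, + strand: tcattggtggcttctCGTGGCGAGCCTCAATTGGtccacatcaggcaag
Dnajc3, chr14:118937812-118937860, + strand: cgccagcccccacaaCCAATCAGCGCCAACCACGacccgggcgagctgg
Pdia6, chr12:17266476-17266524, + strand: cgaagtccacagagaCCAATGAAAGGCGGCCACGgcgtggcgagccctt
Syvn1, chr19:6046517-6046565, + strand: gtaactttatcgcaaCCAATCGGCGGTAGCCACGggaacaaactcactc
Derl3, chr10:75893227-75893275, + strand: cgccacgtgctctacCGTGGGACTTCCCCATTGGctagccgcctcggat
The Hspa5 element lay 65 to 47 bases before the start, and Hsp90b1, which encodes the chaperone GRP94, held the element at both places shown. Among 94 other secretory pathway genes with a window, 0 held an ERSE. The members were chosen by symbol as genes of this response and pathway. The shares of this and the following elements therefore describe the list and test no enrichment.

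A shorter relative of the element (ERSE-II, ATTGGNCCACG) was found in Herpud1 and Dnajb11, 5.13% of the members' windows against 0.0444% of all. The element bound by XBP1 in its core form (UPRE, TGACGTGG) was found in Kdelr3, Sec24d and Sec23a, 7.69% of the members' windows against 0.714% of all and 8.51% of the 94 other secretory pathway genes. The 3 motifs do not overlap one another in any member's window. Herpud1 encodes a degradation factor of the ER membrane, and Kdelr3 and Sec24d a retrieval receptor and a coat subunit.
Herpud1, chr8:94386362-94386402, + strand: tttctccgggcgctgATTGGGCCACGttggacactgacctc
Kdelr3, chr15:79516363-79516400, + strand: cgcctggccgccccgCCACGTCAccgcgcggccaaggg
Sec24d, chr3:123267455-123267492, + strand: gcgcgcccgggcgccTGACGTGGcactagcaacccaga
A match is a description of these letters and shows no binding, and a window without a match says only that these letters are not in it.

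Members differed widely in level. Per kilobase of exon, Serpinh1 stood first in DMSO at 669 CPM per kb, followed by Calr, the calcium-binding chaperone calreticulin, at 372 and P4hb, the disulfide isomerase subunit of prolyl hydroxylase, at 309 CPM per kb. The sensor Ern1 was the lowest of the 48 tested, at 4.23 CPM per kb in DMSO. By group, DMSO held the lowest mean of 33 of the 48 members tested, and TGFb1 the highest mean of 20. The widest ranges between groups belonged to regulators: the highest group mean was 4.67 times the lowest for Atf6, 4.04 times for Ern1 and 4.02 times for Creb3l1. On GRCm38 (GENCODE M21) these 3 genes lie at chr1:170704674-170867771 (Atf6), chr11:106394650-106487852 (Ern1) and chr2:91982328-92024502 (Creb3l1). The narrowest range was that of Derl2, at 1.43 times.

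**Figure D1:**
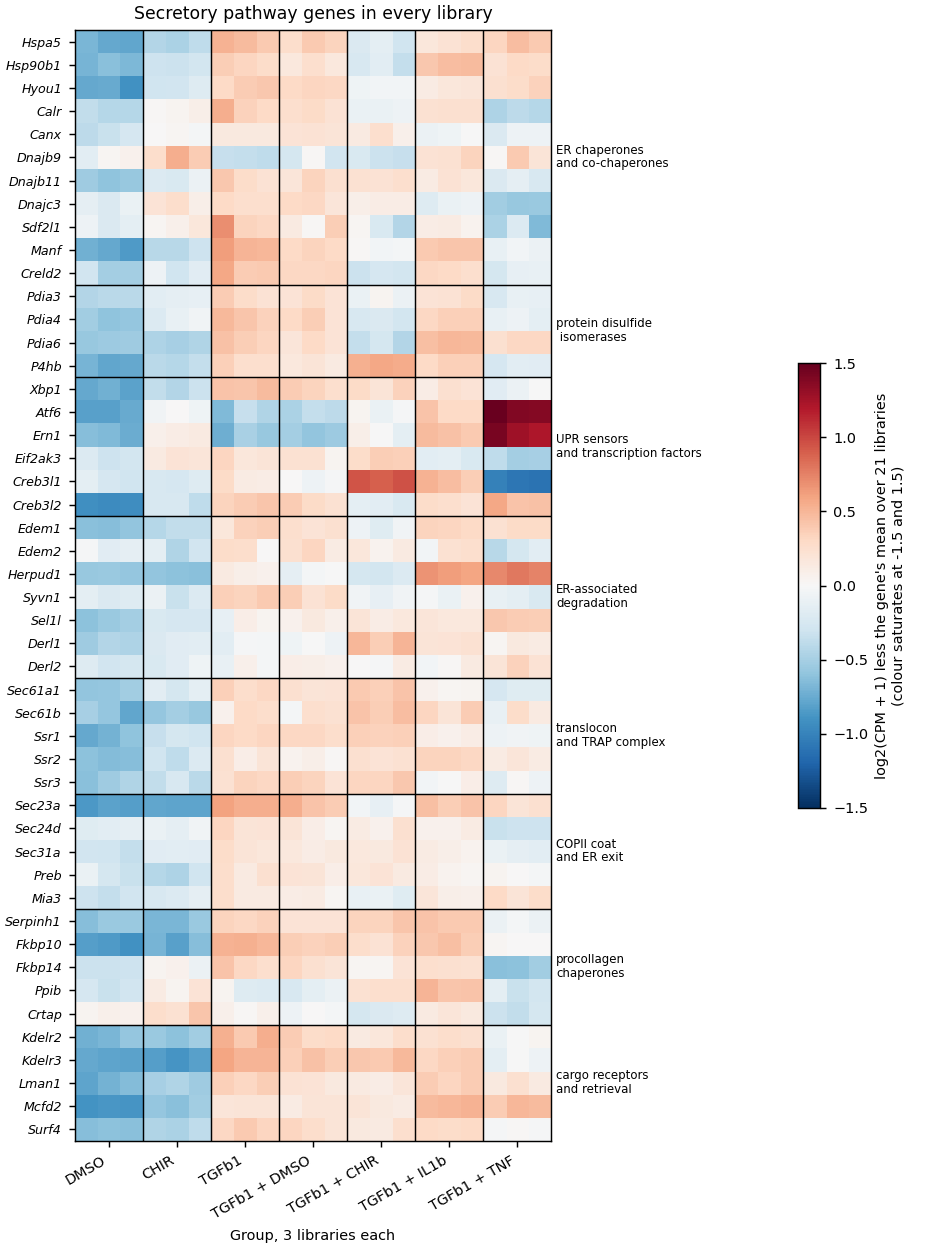
Level of each of the 48 members tested in each of the 21 libraries, as log2(CPM + 1) less the member's mean over all libraries, with members in rows ordered by role and libraries in columns, 3 for each group. The DMSO columns are low for most members, and the TGFb1 + TNF columns hold the high values of Atf6 and Ern1 and the low value of Creb3l1.

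Summed over all 49 members, the genes took 1.41 ± 0.0096% of all counts in DMSO (mean ± SD, n = 3) and 1.61 ± 0.030% in CHIR. The share was 2.44 ± 0.057% in TGFb1, 2.33 ± 0.037% in TGFb1 + DMSO and 2.37 ± 0.028% in TGFb1 + IL1b. It was lower than in TGFb1 + DMSO in TGFb1 + CHIR, at 2.13 ± 0.010%, and in TGFb1 + TNF, at 2.10 ± 0.059%. Secreted cargo did not follow the same order: 5 fibrillar collagen chains and fibronectin (Fn1) together took 4.998 ± 0.019% of counts in DMSO, 8.84 ± 0.092% in TGFb1 + DMSO and 9.74 ± 0.44% in TGFb1 + CHIR, but 5.10 ± 0.18% in TGFb1 + TNF.

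**Figure D2:**
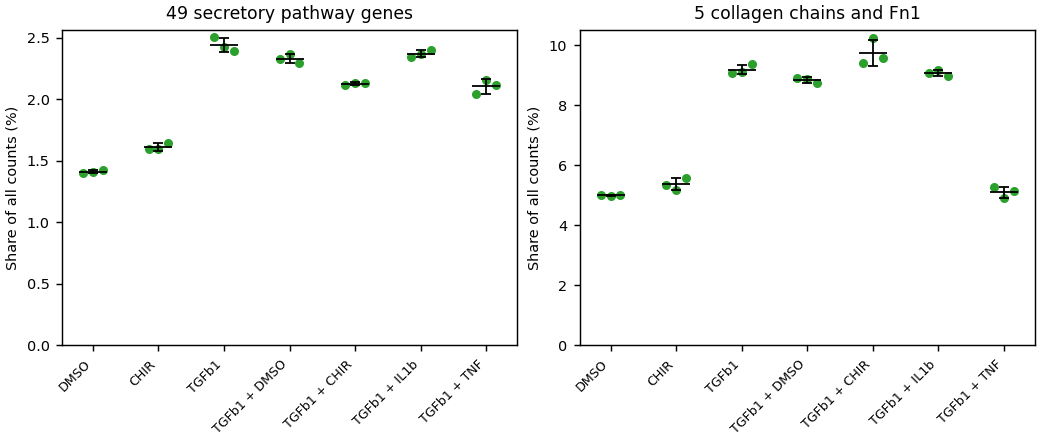
Share of all counts, in percent, taken by the 49 members (left) and by 5 collagen chains and Fn1 (right) in each treatment group. Points are libraries, the long bar is the mean and the whiskers are the SD (n = 3). Both sums are higher in TGFb1 than in DMSO, while in TGFb1 + TNF the sum of the cargo genes is near its level in DMSO and that of the members is not.

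The first comparison asked what TGFb1 did in the presence of the solvent. With TGFb1, 45 of the 48 members tested rose (adjusted p below 0.05, edgeR's quasi-likelihood test with Benjamini-Hochberg adjustment over 16197 genes) and 0 fell, with a median log2 fold change of 0.73. At an unadjusted p under 0.05, 1 member was lower, Crtap, and DESeq2 called 1 lower. Of all genes tested, 30.7% were higher and 31.3% lower, and their median was -0.02. Every role group took part: 10 of 11 chaperones, 4 of 4 isomerases, 5 of 6 regulators, 7 of 7 degradation genes tested, 5 of 5 translocon genes, 5 of 5 COPII genes, 4 of 5 procollagen chaperones and 5 of 5 cargo receptors were higher. Dnajb9, Ern1 and Crtap did not pass the test, at log2 fold changes of -0.16, 0.14 and -0.10.

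Among the chaperones, Hspa5 held 1081, 1025 and 1016 CPM in the 3 DMSO libraries and 2084, 2287 and 2189 CPM with TGFb1 + DMSO. All 3 libraries with TGFb1 lay far above all 3 without it, a log2 fold change of 1.07 ± 0.04 (± SE, as in all that follow), or 2.10-fold. Hyou1, a large chaperone that helps BiP exchange nucleotide, rose by 1.13 ± 0.04, and Manf, a small ER protein that binds BiP, by 1.09 ± 0.04. Hsp90b1 rose by 0.86, Dnajb11 by 0.83, Creld2 by 0.76, Calr by 0.67 and its membrane-bound relative Canx by 0.53. Smaller rises were those of the co-chaperones Dnajc3, by 0.42, and Sdf2l1, by 0.36. Dnajb9, known as a target of spliced XBP1 and a repressor of IRE1, stood apart: it held 26.2, 29.9 and 30.6 CPM in DMSO and 24.1, 29.5 and 23.9 CPM in TGFb1 + DMSO. The 4 isomerases, which form and shuffle disulfide bonds, rose by 0.91 (P4hb), 0.86 (Pdia4), 0.78 (Pdia6) and 0.65 (Pdia3).

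Of the regulators, Creb3l2, a relative of Creb3l1 that is cleaved in the Golgi, rose most, from 182, 178 and 180.0 CPM in DMSO to 447, 418 and 401 CPM in TGFb1 + DMSO. This was a log2 fold change of 1.23 ± 0.04, and the groups did not overlap. Xbp1, the factor whose mRNA IRE1 splices, went from 99.1, 102 and 96.5 CPM to 221, 213 and 200.4 CPM, with a log2 fold change of 1.09 ± 0.05. Atf6 rose from 108, 108 and 113 to 137, 149 and 146 CPM (0.39 ± 0.05), and Eif2ak3 from 47.3, 43.8 and 44.8 to 64.3, 64.3 and 56.2 CPM (0.44 ± 0.06). These were changes of well under that of Xbp1, though the libraries of each did not overlap. Creb3l1 held 232, 216 and 208 CPM in DMSO and 257, 244 and 253 CPM in TGFb1 + DMSO, a small rise of 0.20 ± 0.05. Ern1 held 35.5, 35.1 and 33.1 and 38.9, 36.9 and 38.2 CPM, with an adjusted p of 0.0733 in edgeR's test, and passed without a filter on low counts (0.0258).

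The largest rise of any member was in vesicle export. Sec23a, a subunit of the inner COPII coat, held 126, 132 and 129.5 CPM in DMSO and 335, 309 and 299 CPM in TGFb1 + DMSO, a log2 fold change of 1.28 ± 0.04, or 2.44-fold. The other COPII genes rose less, with Sec31a of the outer coat at 0.45, Mia3 (TANGO1, which loads procollagen at exit sites) at 0.41, Preb, which starts coat assembly, at 0.41, and the cargo adaptor Sec24d at 0.27. Receptors that carry cargo forward or bring ER residents back rose together, with Kdelr3 at 1.18, Mcfd2 at 1.06, Kdelr2 at 0.99, Lman1 at 0.91 and Surf4 at 0.89. In the translocon the changes were 0.99 (Ssr1), 0.86 (Sec61b), 0.84 (Ssr3), 0.78 (Sec61a1, the pore) and 0.70 (Ssr2), all past the threshold.

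Procollagen chaperones split. Fkbp10, a prolyl isomerase of procollagen, went from 152, 149 and 143 CPM in DMSO to 347, 342 and 348 CPM with TGFb1 + DMSO, a log2 fold change of 1.22 ± 0.04. Serpinh1 rose from 1574, 1660.1 and 1672 to 2823, 2815 and 2818 CPM (0.79 ± 0.04), with no overlap. Fkbp14 rose by 0.57 and Ppib, the isomerase cyclophilin B, by 0.14, while Crtap, which forms a prolyl 3-hydroxylase complex with P3h1 and Ppib, held 115, 118 and 116 CPM in DMSO and 105, 112 and 109 CPM in TGFb1 + DMSO. The 7 degradation genes tested rose by 0.86 (the mannosidase-like Edem1), 0.66 (Sel1l), 0.51 (Herpud1), 0.49 (the ubiquitin ligase Syvn1), 0.43 (Derl1), 0.35 (Edem2) and 0.34 (Derl2).

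Other genes of the same machinery, from lists written by role, gave these counts with TGFb1 + DMSO against DMSO, where 30.7% of all genes were higher and 31.3% lower. Of 19 other folding enzymes and chaperones, 16 were higher and 1 lower, with a median of 0.47. The highest was Ero1l, the oxidase that feeds the isomerases, at 2.02 ± 0.12. Of 13 COPI and retrieval genes, 12 were higher and 0 lower (0 also in DESeq2 and at an unadjusted p under 0.05), and of 19 other translocon, signal peptidase and oligosaccharyl transferase genes, 17 and 0. The counts were 16 and 2 for 19 other COPII and exit genes and 9 and 4 for 15 other degradation genes. Of 9 other procollagen chaperones 6 were higher and 2 lower, with a median of 0.27, and of 6 other genes of the ATF6 and CREB3 family and its proteases 2 were higher and 1 lower, with a median of -0.15. The 2 of 6 higher was near the share of all genes. The 6 cargo genes were all higher, with a median of 0.91. Genes of the PERK, ATF4 and CHOP branch were mixed, with 7 of 13 higher and 3 lower, the lowest being Atf3 at -0.71 ± 0.13 and Ppp1r15a, which reverses the PERK block, at -0.69 ± 0.06.

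CHIR was then compared with the solvent, in cells without TGFb1. Without TGFb1, CHIR raised 34 of the 48 members and lowered 1, with a median log2 fold change of 0.29. Of all genes, 22.1% were higher and 22.7% lower, with a median of -0.01. The rises were small for most members, and the 3 largest were those of Ern1, Atf6 and Creb3l2. Ern1 went from 35.5, 35.1 and 33.1 CPM in DMSO to 58.9, 60.7 and 61.6 CPM in CHIR, a log2 fold change of 0.80 ± 0.07, and Atf6 from 108, 108 and 113 to 184, 193 and 183 CPM, a change of 0.77 ± 0.05. Creb3l2 followed, from 182, 178 and 180.0 to 290.1, 290.0 and 264 CPM (0.65 ± 0.04). In all 3 genes every CHIR library lay above every DMSO library. Eif2ak3 rose by 0.44 ± 0.06, to 60.2, 62.9 and 61.9 CPM, and Xbp1 by 0.39 ± 0.05, to 131, 125 and 135 CPM.

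Of the chaperones, 10 of 11 were higher with CHIR alone, against 22.1% of all genes, led by Hyou1 at 0.55 ± 0.04. Hspa5 held 1287, 1254 and 1334 CPM in CHIR, a rise of 0.31 ± 0.04 over DMSO. Sdf2l1 did not pass, at 0.26 ± 0.13. Of the isomerases, Pdia4 rose by 0.44, P4hb by 0.35 and Pdia3 by 0.28, and Pdia6 did not pass, at 0.08. Of the 7 degradation genes 3 were higher, and of the 5 cargo and retrieval receptors 3. Of the 5 COPII genes, 2 were higher (Sec31a at 0.15 and Mia3 at 0.12), and 1, Preb, was the only member that fell. Preb held 54.7, 48.6 and 46.4 CPM in DMSO and 43.5, 42.4 and 47.4 CPM in CHIR, a change of -0.17 ± 0.06 in which the groups overlapped. Its adjusted p was 0.0201 with edgeR, and the call was lost without DMSO replicate 1 (adjusted p 0.224), CHIR replicate 1 (0.0747) or CHIR replicate 2 (0.108). Preb shares 22% of its exon length with Abhd1 on the opposite strand. Creb3l1, at 216, 215 and 224 CPM in CHIR, and Serpinh1, at 1519.5, 1521 and 1672 CPM, did not pass, at -0.0032 ± 0.05 and -0.06 ± 0.04. Serpinh1 passed as lower with library totals (-0.13, adjusted p 0.00285 in edgeR) and without CHIR replicate 3 (-0.11, adjusted p 0.017). With the scaling left at library totals, 30 members were higher and 5 lower with CHIR, and 38.5% of the calls over all genes were rises in place of 49.3%.

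With TGFb1 present, CHIR had a mixed effect on the same genes. In TGFb1 + CHIR against TGFb1 + DMSO, 11 of 48 members were higher and 20 lower, with a median of -0.06, which was -0.12 with library totals and -0.10 without TGFb1 + CHIR replicate 3. Of all genes, 20.8% were higher and 22.5% lower, with a median of 0, so the share of members that rose was near the background and the share that fell above it. Of the 20 lower members, 8 were chaperones, out of 11 tested, with 0 of 11 higher in edgeR, in DESeq2 or at an unadjusted p under 0.05, and the other 12 were spread over 6 roles, among them 3 of 4 isomerases and 3 of 7 degradation genes. Hspa5 held 2084, 2287 and 2189 CPM in TGFb1 + DMSO and 1503, 1567 and 1413 CPM in TGFb1 + CHIR, a log2 fold change of -0.55 ± 0.04. Creld2, a small disulfide isomerase-like protein, went from 74.3, 74.4 and 75.0 to 47.5, 50.1 and 49.3 CPM (-0.61 ± 0.07), and Pdia6 from 327, 356 and 333 to 226, 241 and 212 CPM (-0.58 ± 0.04). In all 3 genes the TGFb1 + CHIR libraries were below all TGFb1 + DMSO libraries. Among the other members that fell, the log2 fold change was -0.54 for Pdia4, -0.51 for Sec23a, -0.47 for Creb3l2 and -0.45 for Hsp90b1.

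The members that rose when CHIR was added to TGFb1 were led by Creb3l1. It held 257, 244 and 253 CPM in TGFb1 + DMSO and 493, 478 and 499 CPM in TGFb1 + CHIR, a log2 fold change of 0.96 ± 0.05, or 1.95-fold. Ern1 rose from 38.9, 36.9 and 38.2 to 59.7, 55.5 and 50.4 CPM (0.54 ± 0.07). Derl1, a channel component of the degradation pathway, rose from 319, 332 and 315 to 472, 432 and 476 CPM (0.51 ± 0.04), without overlap. P4hb rose by 0.39, Ppib by 0.40, Sec61b by 0.28, Sec61a1 by 0.18 and Ssr2 by 0.17. Atf6 went to 196, 179 and 189 CPM (0.39 ± 0.05) and Serpinh1 to 3102, 3102 and 3258 CPM (0.16 ± 0.04), both higher than in TGFb1 + DMSO. Eif2ak3, at 66.2, 70.6 and 70.2 CPM, rose by 0.16 ± 0.06, a call that was lost under some alternatives, with a highest adjusted p of 0.257 without TGFb1 + DMSO replicate 3. Xbp1 held 206, 194 and 215 CPM and did not pass (-0.04 ± 0.05).

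The difference between both effects of CHIR was tested as an interaction, the log2 effect of CHIR with TGFb1 less that without it. It was below 0 for 35 of the 48 members and above 0 for 3 past the threshold, with a median of -0.33. Of all genes, 21% were above 0 and 20.3% below it, with a median of 0.03. All 11 chaperones were among the lower ones, with a median of -0.72 over these 11, as were 3 of 4 isomerases and 5 of 6 regulators. For Hspa5 the interaction was -0.86 ± 0.06, and for Creb3l2, Pdia4 and Hyou1 it was -1.12 ± 0.06, -0.98 ± 0.06 and -0.92 ± 0.06. Pdia4 went from 215, 203 and 208 CPM in DMSO to 269, 286 and 298 CPM in CHIR, but from 382, 399 and 359 CPM in TGFb1 + DMSO to 262, 266 and 257 CPM in TGFb1 + CHIR. The corresponding values of Hyou1 were 170.5, 172 and 156 and 237, 239.5 and 254 CPM without TGFb1, and 359, 366 and 363 and 278, 285 and 284 CPM with it. In both genes CHIR libraries were above their controls without TGFb1 and below them with it. Creb3l1 at 0.97 ± 0.07, Serpinh1 at 0.22 ± 0.05 and Derl1 at 0.22 ± 0.06 were the 3 above 0.

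Both comparisons of CHIR share no control library. Higher with CHIR alone and lower with CHIR on TGFb1 were 14 members (29.2% of 48), against 5.31% of all genes tested: the chaperones Calr, Creld2, Dnajc3, Hsp90b1, Hspa5, Hyou1 and Manf, the isomerases Pdia3 and Pdia4, and Creb3l2, Crtap, Edem1, Fkbp14 and Mia3. Higher in both were 8 members (16.7%, against 7.51% of all genes): Atf6, Derl1, Eif2ak3, Ern1, P4hb, Ppib, Sec61a1 and Ssr2. Taken singly, 34 of 48 members were higher with CHIR alone, against 22.1% of all genes. With CHIR on TGFb1, 20 were lower and 11 higher, against 22.5% and 20.8% of all genes. Whether the joint counts exceed what these single counts give was not tested. Of the 8 members tested that held an ERSE, 6 were higher with CHIR alone, 7 lower with CHIR on TGFb1 and 8 lower in the interaction, whose median over the 8 was -0.73. The 25 members whose window held none of the 3 motifs had 16 lower and 1 higher interactions, with a median of -0.28. With CHIR on TGFb1 these 25 had 8 lower and 6 higher (median -0.04, against -0.41 over the 8). With CHIR alone 19 of the 25 were higher, and the medians of the 8 and the 25 were 0.32 and 0.28. They were 0.71 and 0.65 in TGFb1 + DMSO against DMSO and -0.40 and -0.35 with TNF. No difference between the sets was tested. The ERSE sites were shown because of their members' direction in the interaction, so the 8 lower calls there are no separate evidence. The interaction is computed from both CHIR comparisons, so the calls and medians of the 8 in these are no separate evidence either. Over all genes, 20.3% were lower and 21% higher in the interaction. All 11 chaperones were lower in the interaction, among them Dnajb9 and Sdf2l1, whose windows held none of the motifs. These sets share members with the role groups, and most members with an ERSE are chaperones.

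**Figure D3:**
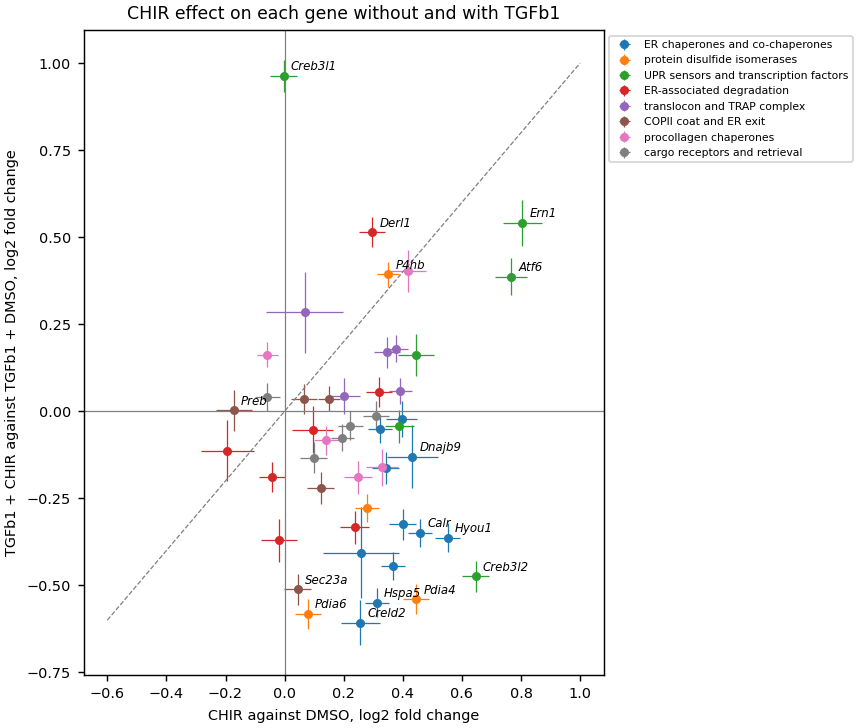
Log2 fold change of each member with CHIR against DMSO (x axis) and with TGFb1 + CHIR against TGFb1 + DMSO (y axis), coloured by role, with SE as bars. The dashed line marks equal effects. Chaperones lie to the right of 0 and at or below 0 on the y axis, the sensors Ern1 and Atf6 are above 0 on both axes, and Creb3l1 is above 0 on the y axis alone.

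Read the other way, TGFb1 in cells given CHIR (TGFb1 + CHIR against CHIR) raised 34 of 48 members and lowered 5, with a median of 0.31, where 33.8% of all genes were higher and 32.3% lower, with a median of 0.01. Its highest rises were in a retrieval receptor, a transcription factor and a translocon subunit. Kdelr3, a receptor that returns escaped ER proteins, went from 214, 205 and 215 CPM in CHIR to 503, 500.3 and 533 CPM in TGFb1 + CHIR (1.28 ± 0.04), and Creb3l1 from 216, 215 and 224 to 493, 478 and 499 CPM (1.17 ± 0.05). Sec61b, the small translocon subunit, rose from 6.71, 7.03 and 6.72 to 14.4, 13.8 and 14.9 CPM (1.07 ± 0.13). None of these 3 overlapped between groups. Serpinh1 rose by 1.01 ± 0.04, Fkbp10 by 0.997 ± 0.04 and P4hb by 0.95 ± 0.04, but Hspa5 by no more than 0.21 ± 0.04. All 5 translocon genes and all 5 cargo and retrieval receptors were higher, while the chaperones were divided, with 5 higher and 3 lower.

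Dnajb9, Crtap and Sdf2l1 were the lowest members in that comparison. Dnajb9 held 35.4, 43.2 and 38.2 CPM in CHIR and 24.8, 23.2 and 22.7 CPM in TGFb1 + CHIR (-0.72 ± 0.09), and Crtap held 134, 131 and 149 and 92.8, 95.8 and 97.4 CPM (-0.53 ± 0.05). Sdf2l1, a co-chaperone of BiP, held 11.4, 11.8 and 12.6 and 11.4, 9.34 and 7.99 CPM (-0.31 ± 0.13). The first 2 fell well beyond the spread between libraries. The call of Sdf2l1 was lost in limma voom (adjusted p 0.0604), without a filter (0.0526), and without any of 4 libraries in turn, with the highest adjusted p, 0.252, without TGFb1 + CHIR replicate 3. Calr, at -0.14, and Pdia4, at -0.12, were lower as well. Xbp1 rose by 0.66 ± 0.05 and Eif2ak3 by 0.16 ± 0.06, and Atf6 (0.01) and Ern1 (-0.13) did not pass. Ern1 passed as lower under 7 alternatives, with adjusted p from 0.0156 with library totals to 0.0493 in DESeq2. The call of Eif2ak3 was lost under 6 alternatives, with adjusted p from 0.0565 without TGFb1 + CHIR replicate 2 to 0.0976 with library totals. These included the fit without CHIR replicate 1 (0.0677). The count of lower members was 8 in place of 5 with library totals or a stricter filter. It was 3 without TGFb1 + CHIR replicate 3.

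The inflammatory cytokines were added to TGFb1 without solvent and compared with TGFb1 alone, which both comparisons share. With IL1b, 11 of 48 members were higher and 23 lower, with a median of -0.08; of all genes 17.2% were higher and 17.4% lower, with a median near 0. With TNF, 9 were higher and 30 lower, with a median of -0.36, where 27.7% and 28.8% of all genes were higher and lower. The share of members that rose with TNF was thus below the background. Most changes with IL1b were small, and the count of lower members rested on the control: against TGFb1 + DMSO, 15 members were higher and 10 lower with IL1b, with a median of -0.000877. Without TGFb1 replicate 1 the count of lower members was 14 and the median -0.05. For TNF the counts against TGFb1 + DMSO were 10 higher and 29 lower.

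Ern1 and Atf6 rose most with both cytokines. Ern1 held 33.2, 39.6 and 37.5 CPM in TGFb1, 78.4, 76.5 and 73.7 CPM in TGFb1 + IL1b and 152, 136 and 131 CPM in TGFb1 + TNF. The log2 fold changes were 1.05 ± 0.07 with IL1b and 1.93 ± 0.06 with TNF, and the 3 groups did not overlap. Atf6 held 120.3, 150.1 and 140.2 CPM in TGFb1, 257, 235 and 236 CPM with IL1b and 537, 501 and 499.5 CPM with TNF, with log2 fold changes of 0.83 ± 0.05 and 1.90 ± 0.05. Here too the 3 groups were apart. PERK's gene went the other way: Eif2ak3 held 68.5, 61.6 and 62.7, then 48.7, 49.1 and 46.4 and 41.8, 38.1 and 38.5 CPM in the same order, with log2 fold changes of -0.42 ± 0.06 and -0.70 ± 0.06. Xbp1 held 228, 225 and 234 CPM in TGFb1, 183, 199 and 194 CPM with IL1b (-0.25 ± 0.05) and 150.4, 159 and 168 CPM with TNF (-0.53 ± 0.05). It therefore fell with both cytokines while the gene of its splicing enzyme rose.

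Creb3l1 separated the cytokines. It held 314, 279 and 278 CPM in TGFb1, 369, 355 and 331 CPM in TGFb1 + IL1b and 126, 121 and 119 CPM in TGFb1 + TNF. It rose with IL1b (0.28 ± 0.05) and fell with TNF (-1.25 ± 0.05), and no 2 of the 3 groups overlapped. Its level in TGFb1 + TNF was also below that in DMSO, at 232, 216 and 208 CPM. Creb3l2, in contrast, was slightly lower with IL1b (-0.13) and higher with TNF (0.11).

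**Figure D4:**
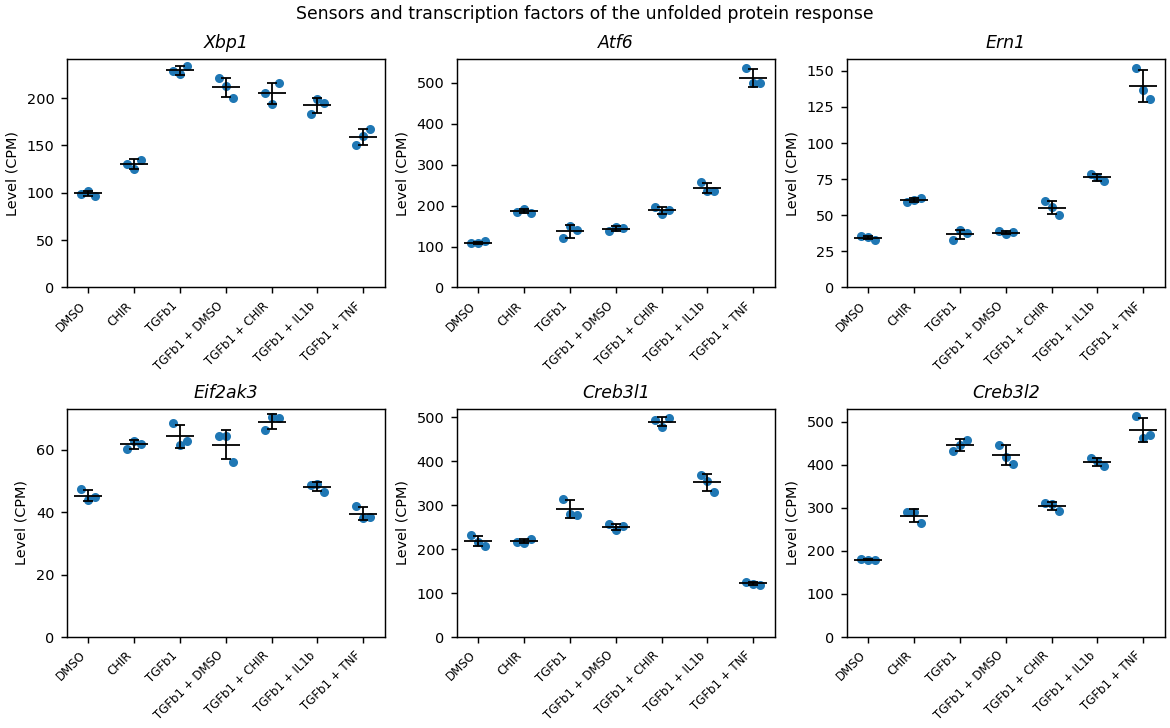
CPM of the 6 sensors and transcription factors in each of the 21 libraries, by treatment group, with the mean as a bar and the SD as whiskers (n = 3). Atf6 and Ern1 are highest in TGFb1 + TNF, Creb3l1 is highest in TGFb1 + CHIR and lowest in TGFb1 + TNF, and Xbp1 is lowest in DMSO.

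Of the chaperones, 2 of 11 rose with IL1b and 9 fell, where 17.2% of all genes were higher and 17.4% lower. With TNF 1 rose and 7 fell, where 27.7% and 28.8% of all genes did. The median over the 11 was -0.17 with IL1b, and TGFb1 + DMSO was itself lower than TGFb1, with a median of -0.13. Manf, lower with IL1b, was at 0.10 against TGFb1 + DMSO (adjusted p 0.0609, edgeR). Hspa5 held 2496, 2413 and 2278 CPM in TGFb1, 1967, 2024.7 and 2087 CPM with IL1b and 2176, 2391 and 2284 CPM with TNF. The change was -0.24 ± 0.04 with IL1b, which passed, and -0.07 ± 0.04 with TNF, which did not (adjusted p 0.15, edgeR) but passed without TGFb1 replicate 3 (0.0472) or TGFb1 + TNF replicate 2 (0.0439). Dnajb9 rose with both, from 22.9, 22.7 and 22.2 CPM to 34.1, 34.6 and 37.1 CPM with IL1b (0.64 ± 0.09) and 29.5, 38.6 and 33.7 CPM with TNF (0.59 ± 0.09). Its lowest cytokine library was above its highest TGFb1 library. Dnajc3, an inhibitor of PERK and co-chaperone of BiP, fell from 248, 239.6 and 239.5 CPM to 177, 188 and 191 CPM with IL1b (-0.39 ± 0.05) and to 139.7, 136 and 137 CPM with TNF (-0.82 ± 0.05). Sdf2l1 held 18.7, 14.3 and 14.1 CPM in TGFb1, 12.2, 12.2 and 11.6 CPM with IL1b (-0.39 ± 0.13) and 7.77, 9.53 and 6.69 CPM with TNF (-0.97 ± 0.13). Its fall with IL1b was lost against TGFb1 + DMSO, at -0.09 (adjusted p 0.601), and without TGFb1 replicate 1 (adjusted p 0.173). With TNF the log2 fold change was -0.83 for Calr, -0.63 for Manf and -0.63 for Creld2, and Hsp90b1 rose by 0.13 with IL1b.

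Degradation genes were the role group in which rises with TNF outnumbered falls, 4 to 2 of 7, where 27.7% of all genes were higher and 28.8% lower. Among 15 other degradation genes, 5 were higher and 5 lower with TNF. Herpud1, which carries an ERSE-II, held 204, 197 and 194 CPM in TGFb1, 296, 286 and 280.4 CPM with IL1b (0.54 ± 0.04) and 307, 321 and 310.4 CPM with TNF (0.66 ± 0.04). The 3 groups followed each other without overlap. Sel1l, Derl1 and Derl2 changed by 0.38, 0.17 and 0.28 with TNF, while Syvn1 and Edem2 changed by -0.53 and -0.49, all past the threshold. Edem1 did not pass with either cytokine, at 0.02 and -0.03.

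Procollagen chaperones were lower with TNF, 4 of 5 genes and 0 higher (0 also in DESeq2 and at an unadjusted p under 0.05), beside the cargo, of which 5 of 6 were lower with a median of -1.21. The share of all genes lower with TNF was 28.8%. Serpinh1 held 3084, 3039 and 3127 CPM in TGFb1, 3292, 3207 and 3210.0 CPM with IL1b (0.07 ± 0.04, which did not pass, but 0.20 with adjusted p 8.64e-06 in edgeR against TGFb1 + DMSO, and adjusted p 0.0296 in limma voom) and 2299, 2393 and 2315 CPM with TNF (-0.40 ± 0.04). Fkbp14, another procollagen isomerase, fell with TNF from 122, 113 and 108 to 58.7, 58.9 and 62.8 CPM (-0.93 ± 0.05). Fkbp10 (-0.50) and Crtap (-0.37) were lower with TNF as well, and Ppib did not pass with TNF (-0.13) but rose with IL1b (0.57). Fibroblast markers moved in the same comparison: all 7, of which Col1a1 and Col1a2 are also cargo genes, were lower with TNF, with a median of -1.70. Their sum was 46105 to 48675 CPM in TGFb1, 41445 to 42922 CPM with IL1b and 18180.4 to 19178 CPM with TNF, and Pdgfra went from 424 to 76.8 CPM. Their part in the members' fall was not tested. The isomerases Pdia3, Pdia4 and P4hb fell with TNF, with log2 fold changes of -0.45, -0.53 and -0.49. With IL1b, 0 of the 4 isomerases passed in edgeR or DESeq2, and 1, Pdia6, was higher at an unadjusted p under 0.05 and in limma voom. Both retrieval receptors were lower with TNF, Kdelr2 at -0.51 and Kdelr3 at -0.61, as were Sec24d, at -0.56, and Sec61a1, at -0.51, but Mcfd2, the soluble partner of Lman1, was 0.26 higher on the log2 scale.

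Eif2ak3 fell with both cytokines, while the genes listed under the PERK, ATF4 and CHOP branch rose. All 13 genes of the PERK, ATF4 and CHOP branch list were higher with IL1b (median 1.09), among them Ero1l, which the list of folding enzymes also holds, and all 13 with TNF (median 1.14). The shares of all genes that were higher were 17.2% with IL1b and 27.7% with TNF. Rises in this list were not particular to the cytokines. In TGFb1 + CHIR against TGFb1 + DMSO, 10 of the 13 were higher and 1 lower, against 20.8% and 22.5% of all genes. Atf4, the factor whose translation PERK favours, averaged 732 ± 6.22 CPM in TGFb1, 1384 ± 50.3 CPM with IL1b and 1295 ± 18.3 CPM with TNF. Ddit3, which encodes CHOP, averaged 35.6 ± 4.28, 109 ± 0.409 and 126 ± 7.09 CPM. The highest change was that of Atf3, at 2.34 ± 0.13 with IL1b and 3.33 ± 0.13 with TNF. The list and its direction were known from earlier results on these data, so these counts are no separate evidence.

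Set against each other, TGFb1 + IL1b held 32 members above TGFb1 + TNF and 9 below, with a median of 0.21. Of all genes 24.7% were higher and 22.8% lower, with a median of 0.01, so the share of members below was near the background. Creb3l1 differed most, by 1.53 ± 0.05, or 2.89-fold. Fkbp14 followed, at 108, 108 and 107 CPM with IL1b against 58.7, 58.9 and 62.8 CPM with TNF (0.84 ± 0.05), and Ppib at 105, 99.0 and 99.6 against 66.7, 58.3 and 61.0 CPM (0.71 ± 0.06). In these 3 genes every IL1b library was above every TNF library. The count of Ppib is uncertain, since it shares 25% of its exon length with Snx22 on the opposite strand. All 5 procollagen chaperones and all 4 isomerases were higher with IL1b than with TNF. Atf6 (-1.08 ± 0.05), Ern1 (-0.87 ± 0.06) and Creb3l2, at 415, 408 and 398 against 514, 463 and 468 CPM (-0.24 ± 0.04), were the lowest. Xbp1 (0.27), Eif2ak3 (0.28) and Serpinh1 (0.47) were higher with IL1b than with TNF, and Hspa5 (-0.17) was lower.

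**Figure D5:**
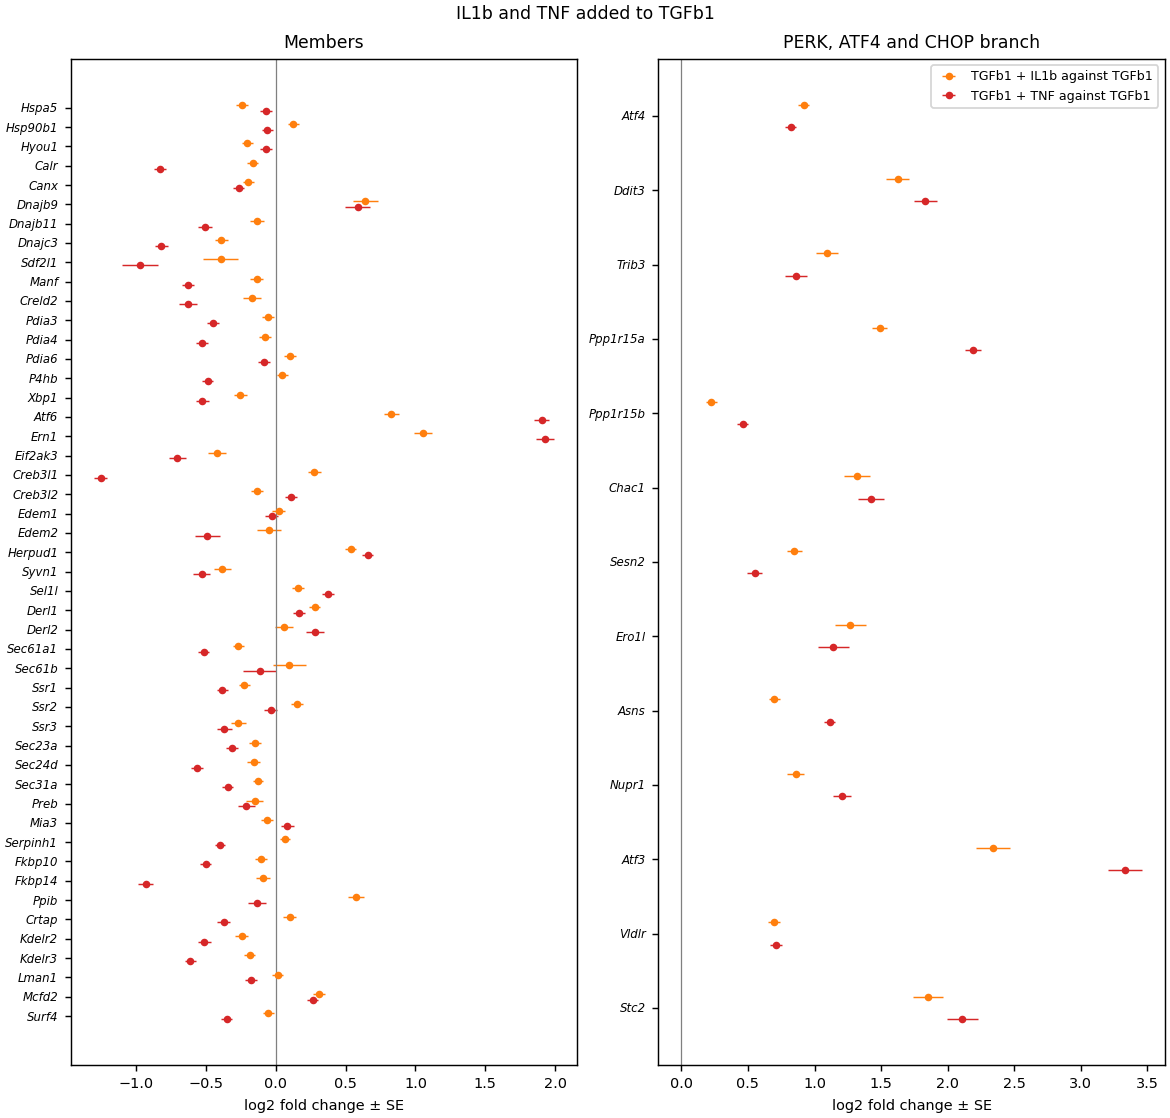
Log2 fold change (x axis, points with SE as bars) with IL1b (orange) and with TNF (red), each added to TGFb1 and compared with the same TGFb1 libraries, for the 48 members tested (left, in rows by role) and for the 13 genes of the PERK, ATF4 and CHOP branch (right). Ern1 and Atf6 are above 0 with both cytokines, Creb3l1 is above 0 with IL1b and below it with TNF, and the 13 branch genes are above 0 with both.

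The solvent itself was compared in cells given TGFb1. In TGFb1 + DMSO against TGFb1, 0 of 48 members were higher and 13 lower, with a median of -0.08. Of all genes 2.33% were higher and 3.8% lower, with a median near 0. At an unadjusted p under 0.05, 2 members were higher, Dnajb9 and Sel1l, and DESeq2 called 0 higher. The changes were small. Manf held 277, 255 and 255 CPM in TGFb1 and 221, 226 and 220.5 CPM in TGFb1 + DMSO (-0.24 ± 0.04), Creb3l1 held 314, 279 and 278 and 257, 244 and 253 CPM (-0.21 ± 0.05), and Kdelr2 held 509, 463 and 514 and 459, 428 and 435 CPM (-0.17 ± 0.04). These 3 were the lowest members that passed, and their libraries did not overlap. Hspa5 and Serpinh1 passed as lower too. Both calls were lost with library totals (-0.10 for each, adjusted p 0.139 and 0.0813, edgeR). They were also lost without single libraries. Examples are Hspa5 without TGFb1 + DMSO replicate 1 (adjusted p 0.237) and Serpinh1 without TGFb1 replicate 3 (0.0808). The count of lower members was 4 with library totals, 19 in DESeq2, 4 without TGFb1 replicate 1, 8 without TGFb1 + DMSO replicate 1 and 4 without TGFb1 + DMSO replicate 3, and the split of calls over all genes went from 38.1% rises to 59.1% with library totals. The call of Creb3l1 was lost without TGFb1 replicate 1 (adjusted p 0.0633). That of Kdelr2 was lost without any of 4 libraries in turn, at adjusted p 0.0787 without TGFb1 replicate 1, 0.0929 without TGFb1 replicate 3, 0.0869 without TGFb1 + DMSO replicate 2 and 0.0587 without TGFb1 + DMSO replicate 3.

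By level, the order of the 7 groups differed between the regulators. For Atf6 it ran from DMSO (109.7 ± 2.61 CPM, mean ± SD) and TGFb1 (137 ± 15.2) through TGFb1 + DMSO (144 ± 5.89), CHIR (186 ± 5.37) and TGFb1 + CHIR (188 ± 8.61) to TGFb1 + IL1b (243 ± 12.4) and TGFb1 + TNF (512 ± 21.2). CHIR and TGFb1 + CHIR did not pass the test against each other, nor did TGFb1 and TGFb1 + DMSO. For Creb3l1 it ran from TGFb1 + TNF (122 ± 3.96) through CHIR (218 ± 4.70), DMSO (219 ± 12.3), TGFb1 + DMSO (251 ± 6.47), TGFb1 (290.4 ± 20.7) and TGFb1 + IL1b (352 ± 19.4) to TGFb1 + CHIR (489.9 ± 10.6). CHIR and DMSO did not pass the test against each other. Of 6 other genes of the ATF6 and CREB3 family and the proteases that release them, 1 was higher and 2 lower with TNF. With IL1b, 1 was higher and 0 lower (0 also in DESeq2 and at an unadjusted p under 0.05). The shares of all genes that were higher and lower were 27.7% and 28.8% with TNF, and 17.2% and 17.4% with IL1b. The gene that rose with TNF was Mbtps2, the site-2 protease, at 0.72 ± 0.07. Creb3l3, a CREB3 family factor at low level here, was the lowest with TNF, at -1.15 ± 0.21, and the gene that rose with IL1b, at 0.83 ± 0.18. It held 4.46, 3.43 and 4.28 CPM in TGFb1, 8.84, 6.48 and 6.25 CPM with IL1b and 1.60, 2.03 and 1.83 CPM with TNF, without overlap.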

How the data were processed

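Total RNA of 21 libraries was extracted with a Qiagen RNeasy kit and made into libraries with an Illumina TruSeq Stranded Total RNA kit, per the labels' protocols. The authors deposited raw read counts per gene. The submitters' processing notes name the builds GRCh38 and GRCm38 with no role, and the aligner, the counter and the strand setting were not given in the sources used here. All 21 single-library tables equalled their column of the table of 52636 genes. Rows without a symbol in the reference (233, 0.0192% of counts) were not removed before the fit and met the same low-count filter as the others. Symbols, positions and exon lengths came from GENCODE M21 on GRCm38, and promoter windows from RefSeq on GRCm38.p6.

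Genes passing filterByExpr (16197) were fitted with edgeR 4.0.16 in R 4.3.3, using TMM factors, a coefficient for each group, all 21 libraries together, and the quasi-likelihood F-test in its robust form. P-values were adjusted by Benjamini-Hochberg over all genes tested, with a threshold of 0.05. The biological coefficient of variation was 0.0581. SE is the absolute log2 fold change divided by the square root of F. The fit was tested on simulated data. Groups came from the treatment labels, and 9 comparisons were made.

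The alternatives were DESeq2 1.42.0 or limma 3.58.1 voom as the test, RLE factors or library totals as the scaling, and a fit with no low-count filter or with one of 1 CPM in 3 or more libraries. Further fits dropped mitochondrial and rRNA genes, used only the groups being compared, swapped the TGFb1 control, or dropped each replicate in turn. The members, lists and tests were chosen with earlier results of these data known. By the rule used, every member is named, and values per library are given for Hspa5, Xbp1, Atf6, Ern1, Eif2ak3, Creb3l1 and Serpinh1 and, in each comparison, for the 3 highest and 3 lowest members past the threshold. Of other lists, at most the 2 highest and 2 lowest genes past the threshold are named, and Atf4, Ddit3 and cargo genes may be. Other members named in a comparison were chosen to show their role group.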

Additional observations from a re-analysis of the deposited data

Results flagged for a closer look

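The effect of CHIR differed with and without TGFb1, by the interaction test in edgeR, for the 7 genes chosen beforehand to be given values per library. Also given are the 3 highest and 3 lowest interactions past the threshold, which include 2 of those 7 and were chosen for their values in this test. Of all genes, 21% passed above 0 and 20.3% below it. The values are the log2 effect of CHIR with TGFb1 less that without it. They were -0.86 for Hspa5, -0.92 for Hyou1 and -0.98 for Pdia4 among the folding genes, and -1.12 for Creb3l2, -0.43 for Xbp1, -0.38 for Atf6, -0.28 for Eif2ak3 and -0.26 for Ern1 among the regulators. The values above 0 were 0.97 for Creb3l1, 0.22 for Serpinh1 and 0.22 for Derl1. For Ern1 the call was lost without DMSO replicate 3 (adjusted p 0.0503) and without TGFb1 + CHIR replicate 3 (adjusted p 0.0936). Groups of 3 libraries are too small for the test of single outlying libraries.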

How the results depend on the processing

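Counts of members that were higher in each comparison stayed within 1.5 times of the value given, under every alternative tried. Counts of lower members moved more. For TGFb1 + DMSO against DMSO (0 lower) the count was 1 with the other TGFb1 control, RLE factors, a stricter filter or DESeq2, 2 with library totals, and 0 to 1 with a replicate left out. For CHIR against DMSO (1 lower) it was 5 with library totals and 0 to 2 with a replicate left out, and for TGFb1 + CHIR against CHIR (5 lower) 8 with library totals or a stricter filter and 3 to 6 with a replicate left out. For IL1b (23 lower) it was 10 with the other TGFb1 control and 14 to 22 with a replicate left out, and for the solvent on TGFb1 (13 lower) 4 with library totals and 4 to 11 with a replicate left out. The solvent's calls over all genes (993) ranged from 646 to 884 with a replicate left out. The 2 reversals were Manf, at 0.10 (adjusted p 0.0609, edgeR), and Fkbp10, at 0.050 (adjusted p 0.367, edgeR), with IL1b against TGFb1 + DMSO. The causes were not tested. The members' median for the solvent on TGFb1 was -0.05 with library totals. No scaling moved the median of all genes by over 0.1. No paired analysis was possible because replicates were numbered in accession order, which pairs no libraries. Derl3, at under 1 CPM, is below what this depth can test.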
